A study of Rattus norvegicus with 14 samples.

Results

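The semaphorins, plexins, Eph receptors and ephrins are 4 linked families of cell guidance genes. Here they were taken as every row of the deposited count table whose name begins with Sema and a digit, with Plxn, or with Epha, Ephb, Efna or Efnb and a digit. This gave 52 of the 26319 rows of the table. All 52 passed the filter on low counts, which kept 18678 genes in all. They comprised 20 semaphorins (7 of class 3, 6 of class 4, 2 of class 5, 4 of class 6 and 1 of class 7), 9 plexins, 10 rows of EphA receptors, 5 EphB receptors, 5 ephrin-A and 3 ephrin-B ligands. The name Epha10 occurs in 2 rows, which the table places on chromosome 5 and on chromosome 11. Only the first chromosome is where RefSeq has a gene of that name, and both rows were kept as deposited.

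Semaphorins are secreted or membrane-bound proteins that were found as repellents of growing axons. They signal mainly through plexins, and most secreted class 3 members need a neuropilin as a coreceptor. In immune tissue, membrane semaphorins also act between leukocytes, and in vessels plexin D1 guides endothelial sprouts. Eph receptors are tyrosine kinases that bind ephrins on a neighbouring cell, ephrin-A ligands through a lipid anchor and ephrin-B ligands through a transmembrane protein that can itself signal. In the mouse intestine, EphB receptors of the crypt base and ephrin-B ligands of more differentiated cells keep epithelial cells in their positions along the crypt.

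The RNA came from the colon of male Wistar rats, 72 h after 2,4,6-trinitrobenzene sulphonic acid (TNBS), a hapten that provokes colitis, was given into the colon. The 14 libraries hold 2 controls, which the labels describe as given vehicle without induction of colitis and sampled from random sections of the colon, and 2 samples from each of 6 TNBS treated animals, 1 taken where the colon was inflamed and 1 from uninflamed colon at a distance from it. No genetic alteration or further agent is named, and no age was found in these sources. The comparisons are abbreviated I-UI (inflamed against uninflamed), I-C (inflamed against control) and UI-C (uninflamed against control). I-C and UI-C share both controls, and I-UI and I-C share the inflamed libraries.

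The libraries held 6734968 to 13792657 reads, of which the 52 genes took 0.163% to 0.416%. No library was without reads on any of them, and the lowest count was 3. Levels are given as CPM, read counts scaled to a common library size after TMM normalization, which corrects that size for differences in composition, and a gene at 3 reads lay at 0.182 to 0.478 CPM. A gene was called when its Benjamini-Hochberg adjusted p in edgeR's quasi-likelihood test over all 18678 genes was under 0.05 and its change at least 2-fold. Epithelial markers summed to 2727 to 5075 CPM in uninflamed and to 134 to 2841 CPM in inflamed libraries, and all 8 of them (Epcam, Cdh1, Krt8, Krt18, Krt20, Vil1, Cdx2, Cldn7) were called lower in I-UI. Myeloid markers summed to 51.1 to 127 CPM in uninflamed and to 453 to 2084 CPM in inflamed libraries, with 6 of 8 called higher. The inflamed region of animal 221 held the most epithelial and the least myeloid marker RNA of its group, 2841 and 453 CPM. In these bulk samples, fewer cells of a type and less RNA per cell cannot be told apart.

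Of the 52 genes, 4 were called higher and 6 lower in inflamed than in uninflamed regions. The genes that rose were Plxnc1, Sema6b, Sema7a and Sema4d, and those that fell were Efna1, Sema3b, Efnb1, Efnb2, Ephb3 and Sema4g. These are 7.69% and 11.5% of the members, beside 6.15% and 6.95% of all genes tested that were called higher and lower in I-UI. The share called higher is thus near that of all genes, and the share called lower rests on 6 genes. The median log2 fold change was 0.11 over the members and 0.04 over all genes. With the animals as a block, the same 10 genes were called. By family, edgeR's quasi-likelihood test called none of the 10 EphA rows, with 2 at an unadjusted p under 0.05, and it called 3 of 8 ephrin ligands lower and none higher. The families were not compared by a test.

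**Figure D1:**
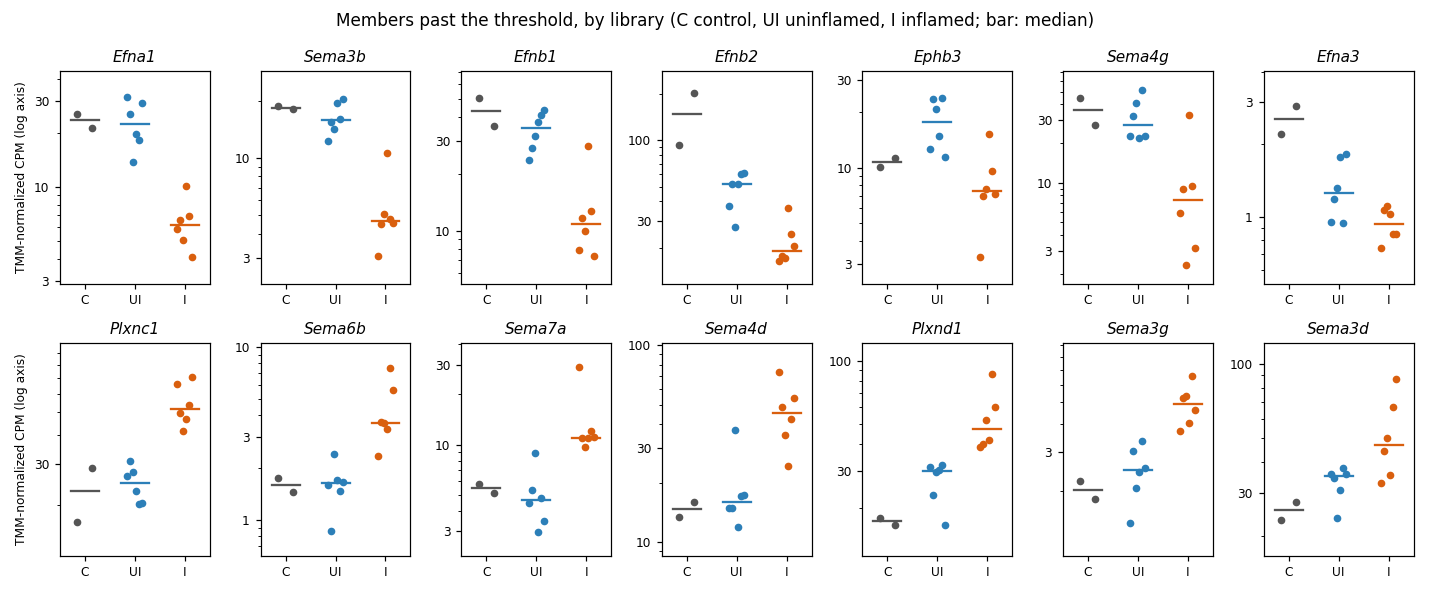
TMM-normalized CPM (log axis) of the 14 genes called in I-UI or I-C, with 1 point per library and a bar at the median of controls (C, 2 libraries), uninflamed (UI, 6) and inflamed regions (I, 6). Inflamed libraries lie wholly below the uninflamed ones for Efna1 (4.07 to 10.2 against 13.8 to 31.7 CPM) and wholly above them for Plxnc1 (41.4 to 70.6 against 20.2 to 30.9 CPM).

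Sequences upstream of the start of some of these genes are shown because the genes moved together: the ephrin ligands Efna1 and Efnb2, which fell, and the ligand and receptor pair Sema7a and Plxnc1, which rose. They are RefSeq windows of the GRCr8 build, 250 bases before to 50 after the annotated gene start, and such a window was found for 41 of the 51 member names. GRCr8 is not the build the counts were made on, and the start used in colon is not known from these data. Capitals mark GC boxes (GGGCGG on either strand), the sites of Sp-type factors, and in Efnb2 a Snail-type E-box (CAGGTG on either strand).
Efna1, chr2:176986772-176987071, minus strand: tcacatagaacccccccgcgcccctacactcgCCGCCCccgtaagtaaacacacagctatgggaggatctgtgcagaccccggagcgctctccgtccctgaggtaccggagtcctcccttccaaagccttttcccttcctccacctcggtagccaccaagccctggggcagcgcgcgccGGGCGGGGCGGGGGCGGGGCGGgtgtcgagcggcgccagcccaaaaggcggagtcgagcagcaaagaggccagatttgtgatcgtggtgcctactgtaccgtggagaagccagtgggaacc
Efnb2, chr16:87484965-87485264, plus strand: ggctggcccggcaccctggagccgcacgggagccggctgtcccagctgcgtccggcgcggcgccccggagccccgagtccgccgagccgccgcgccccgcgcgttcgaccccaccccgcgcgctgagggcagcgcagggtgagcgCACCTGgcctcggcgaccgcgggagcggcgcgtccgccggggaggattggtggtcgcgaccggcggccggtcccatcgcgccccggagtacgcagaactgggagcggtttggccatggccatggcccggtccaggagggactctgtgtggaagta
Sema7a, chr8:67244068-67244367, plus strand: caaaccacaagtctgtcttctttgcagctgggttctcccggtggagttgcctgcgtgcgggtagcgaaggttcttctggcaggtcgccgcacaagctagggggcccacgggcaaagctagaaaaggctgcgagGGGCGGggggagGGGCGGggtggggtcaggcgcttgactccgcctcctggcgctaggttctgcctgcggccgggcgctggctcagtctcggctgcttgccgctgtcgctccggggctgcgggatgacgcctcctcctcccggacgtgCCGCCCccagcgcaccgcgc
Plxnc1, chr7:31430556-31430855, minus strand: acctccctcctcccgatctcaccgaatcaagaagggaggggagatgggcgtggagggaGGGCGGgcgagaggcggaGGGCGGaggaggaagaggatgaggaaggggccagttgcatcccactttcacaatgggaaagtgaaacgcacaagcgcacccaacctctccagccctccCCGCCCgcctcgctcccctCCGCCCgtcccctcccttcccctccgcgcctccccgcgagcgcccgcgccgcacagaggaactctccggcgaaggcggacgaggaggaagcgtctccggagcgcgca

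GC boxes were matched 5 times in the window of Efna1, where the copies nearest the start overlap, 4 times in that of Plxnc1 and 3 times in that of Sema7a, and were not matched in that of Efnb2. Over all windows, 33.1% of 33469 held a GC box, and 23 of the 41 member windows did. The E-box of Efnb2 begins 105 bases before the annotated start. It was matched in 1 of the 7 windows of genes called in I-UI, in 7 of 41 member windows and in 18.8% of all windows. The NF-kB consensus (4.18% of all windows) and the AP-1 motif TGANTCA (7.33%) were matched in none of those 7, and in 5 and 1 of the 41. The windows of Efnb1, which also fell, and of Sema6b, which rose, held no match to any of these motifs and are not shown. A match is a run of letters and not a measured binding site.

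Among the semaphorins, Sema7a, Sema4d and Sema6b rose in I-UI, and the former pair are membrane-bound molecules of immune cells. Sema7a, which is tethered by a lipid anchor and binds plexin C1 and integrins, stood at 5.77 and 5.12 CPM in the controls. Its uninflamed libraries ran from 2.999 to 8.88 CPM (median 4.63) and its inflamed libraries from 9.67 to 29.1 CPM (median 11). The inflamed libraries lay above all others, 5 of the 6 were between 9.67 and 12.1 CPM, and the highest value was that of animal 218. Its log2 fold change was 1.48 in I-UI (standard error 0.31, adjusted p = 0.0032), and the inflamed region was the higher in 6 of 6 animals. In I-C it was 1.35 (standard error 0.47, adjusted p = 0.0606) and did not pass in edgeR's quasi-likelihood test, but it was called by DESeq2 (adjusted p = 0.0257), by edgeR's exactTest (adjusted p = 0.0441) and without the uninflamed library of animal 220 (adjusted p = 0.0399).

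Sema4d, also known as CD100, is a semaphorin of lymphocytes that binds plexin B1 and CD72. It had 13.4 and 16.01 CPM in controls, 11.9 to 37.2 CPM (median 16.03) in uninflamed and 24.4 to 73.5 CPM (median 45.5) in inflamed libraries. A single uninflamed library, that of animal 220, exceeded the lowest inflamed values, and in this animal alone the 2 regions were nearly level (37.2 and 35.0 CPM). On the log2 scale the difference was 1.29 in I-UI (standard error 0.29, adjusted p = 0.00496, higher in 5 of 6 animals) and 1.66 in I-C (standard error 0.45, adjusted p = 0.0215). The I-C call was lost without either control (adjusted p up to 0.179). The B cell markers moved with single libraries here, and 0 of the 4 tested were called in I-UI. They summed to 100.5 CPM in the uninflamed region of animal 220, beside 19.9 to 33.3 CPM in the other uninflamed libraries. In the inflamed region of animal 218, where Sema4d and Sema7a were highest, they summed to 421 CPM. The other inflamed libraries had 28.7 to 90.1 CPM. The inflamed regions of animals 219 and 222 had B cell sums of 32.0 and 35.8 CPM, with Sema4d at 48.9 and 42.1 CPM. T cell markers summed to 49.7 CPM in the uninflamed region of animal 220, the highest of its group. Their inflamed sums were 45.7 to 148 CPM, highest in animals 223 and 218, and control 217 had 372 CPM. The part of these markers in the result was not tested.

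Sema6b, a transmembrane semaphorin that binds class A plexins, rose from a low level. It had 1.73 and 1.44 CPM in controls, 0.865 to 2.38 CPM (median 1.63) in uninflamed and 2.33 to 7.498 CPM (median 3.64) in inflamed libraries. The inflamed and uninflamed ranges touched only at the lowest inflamed library, that of animal 218, and the highest uninflamed library, that of animal 220. Its log2 fold change was 1.43 in I-UI (standard error 0.30, adjusted p = 0.0029, higher in 6 of 6 animals) and 1.45 in I-C (standard error 0.45, adjusted p = 0.0395). The I-C call was lost under 8 of 25 alternatives, among them leaving out either control. The class 6 genes Sema6a, Sema6c and Sema6d had I-UI log2 fold changes of -0.37, 0.23 and 0.25 and did not pass.

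Sema3b was the semaphorin with the smallest adjusted p, and it fell. It is a secreted class 3 semaphorin that signals through neuropilins, and in human tumours it is known as a growth suppressor. The controls had 18.8 and 18.0 CPM, the uninflamed libraries 12.3 to 20.5 CPM (median 15.7) and the inflamed libraries 3.07 to 10.6 CPM (median 4.68). All inflamed libraries lay below all others, the highest of them being that of animal 221. The log2 fold change was -1.57 in I-UI (standard error 0.25, adjusted p = 0.000644) and -1.74 in I-C (standard error 0.32, adjusted p = 0.00291), and the inflamed region was the lower in 6 of 6 animals. RefSeq places Sema3f, also secreted, near Sema3b on the same chromosome with 3 protein-coding genes between them. Sema3f had an I-UI log2 fold change of 0.64 (adjusted p = 0.0273), which is short of 2-fold and of the opposite sign.

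The other class 3 genes mostly had positive values. Sema3g and Sema3d, both secreted ligands of the neuropilin and plexin system, were called in I-C and not in I-UI. Sema3g had 2.21 and 1.84 CPM in controls, 1.43 to 3.34 CPM (median 2.48) in uninflamed and 3.71 to 6.58 CPM (median 4.93) in inflamed libraries. Its inflamed libraries lay above all others. Its log2 fold change was 0.98 in I-UI (standard error 0.22, adjusted p = 0.00465), just short of 2-fold, and 1.27 in I-C (standard error 0.34, adjusted p = 0.0185). Sema3d had 23.4 and 27.7 CPM in controls, 23.8 to 37.8 CPM (median 35.1) in uninflamed and 32.8 to 87.1 CPM (median 47.2) in inflamed libraries, and the latter groups overlapped. Its I-C log2 fold change was 1.05 (standard error 0.34, adjusted p = 0.0428). That call was lost under 11 of 25 alternatives, and both I-C calls were lost without either control. Sema3a, the founding axon repellent of the class and the neighbour of Sema3d in RefSeq, had an I-UI log2 fold change of 0.63 (adjusted p = 0.0514). Sema3c had 0.14 (adjusted p = 0.725).

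Of the class 4 and class 5 genes, Sema4g fell, with a wide spread. This transmembrane semaphorin had 44.4 and 27.8 CPM in controls, 21.8 to 51.5 CPM (median 27.6) in uninflamed and 2.36 to 33.0 CPM (median 7.37) in inflamed libraries. The inflamed and uninflamed ranges overlapped through 1 library, the inflamed region of animal 221 at 33.0 CPM. The other 5 inflamed libraries were at or below 9.41 CPM. Its log2 fold change was -1.61 in I-UI (standard error 0.53, adjusted p = 0.0394, lower in 5 of 6 animals) and -1.78 in I-C (standard error 0.68, adjusted p = 0.0899). Without the inflamed library of animal 221, the I-UI value was -2.43 (adjusted p = 0.000245), and the call was lost under 13 of 26 alternatives. In I-C it was called lower by limma-voom (-2.27, adjusted p = 0.0267), by edgeR's exactTest (adjusted p = 0.0183) and without that inflamed library (-2.60, adjusted p = 0.00106). Sema5a, a transmembrane semaphorin with thrombospondin repeats, was lower in 6 of 6 animals at less than 2-fold (log2 fold change -0.88, adjusted p = 0.0133). Sema4f had 0.63 (adjusted p = 0.0284), and its inflamed libraries also lay wholly above the uninflamed ones. Sema4a, Sema4b, Sema4c and Sema5b, with values of 0.06, -0.31, 0.40 and 0.05, did not pass.

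The plexins are the receptors of these ligands. Of the 9, 1 was called higher in I-UI and 2 in I-C, beside 6.15% and 5.93% of all genes tested. None was called lower in either, beside 6.95% and 7.79% of all genes, and counts among 9 genes say little. Plxnc1, the receptor of Sema7a, had 17.02 and 28.9 CPM in controls, 20.2 to 30.9 CPM (median 24.8) in uninflamed and 41.4 to 70.6 CPM (median 51.6) in inflamed libraries. Every inflamed library was above every other library. On the log2 scale the difference was 1.14 in I-UI (standard error 0.18, adjusted p = 0.000644, higher in 6 of 6 animals) and 1.25 in I-C (standard error 0.27, adjusted p = 0.00703). Without control 216, the I-C value was 0.92 (adjusted p = 0.128). The ligand and the receptor of the Sema7a and Plxnc1 pair were thus both called higher in I-UI. The study also lists Plxnc1 among its neutrophil signature genes. Myeloid markers summed to 51.1 to 127 CPM in uninflamed and to 452.5 to 2084 CPM in inflamed libraries. Among inflamed libraries, the highest sum was that of animal 220, where Plxnc1 was lowest (41.4 CPM). Animal 221, with the lowest sum, had 46.6 CPM of Plxnc1. Animals 218 and 223 had the most Plxnc1, 66.1 and 70.6 CPM, at myeloid sums of 490 and 1040 CPM. The part of the myeloid markers in the result was not tested.

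Plxnd1, the endothelial receptor of Sema3e, had 17.9 and 16.5 CPM in controls, 16.5 to 31.7 CPM (median 29.9) in uninflamed and 39.0 to 86.7 CPM (median 47.2) in inflamed libraries. Its inflamed libraries were also above all others, with the highest value in animal 222. The log2 fold change was 1.63 in I-C (standard error 0.34, adjusted p = 0.00545), a call lost without either control. In I-UI it was 0.98 (standard error 0.22, adjusted p = 0.00438), short of 2-fold, and it passed 2-fold under 9 of the 25 alternatives that kept this minimum. Endothelial markers summed to 95.8 to 136 CPM in uninflamed and 155 to 275 CPM in inflamed libraries, highest in the inflamed region of animal 222, and their part in the result was not tested. Plxna1, a class A receptor, had an I-C log2 fold change of 0.95 (adjusted p = 0.0446), also short of 2-fold. Plxnb2, a class B receptor of class 4 semaphorins, had -0.41 in I-UI (adjusted p = 0.132), and Plxna2 and Plxna4a were at -0.05 each. Plxna3 and Plxnb3 had I-UI values of 0.28 and 0.34 and did not pass. Plxnb1 had 0.93 in I-UI (adjusted p = 0.35) and -1.69 in I-C (adjusted p = 0.21), and its high single libraries are given further on.

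**Figure D2:**
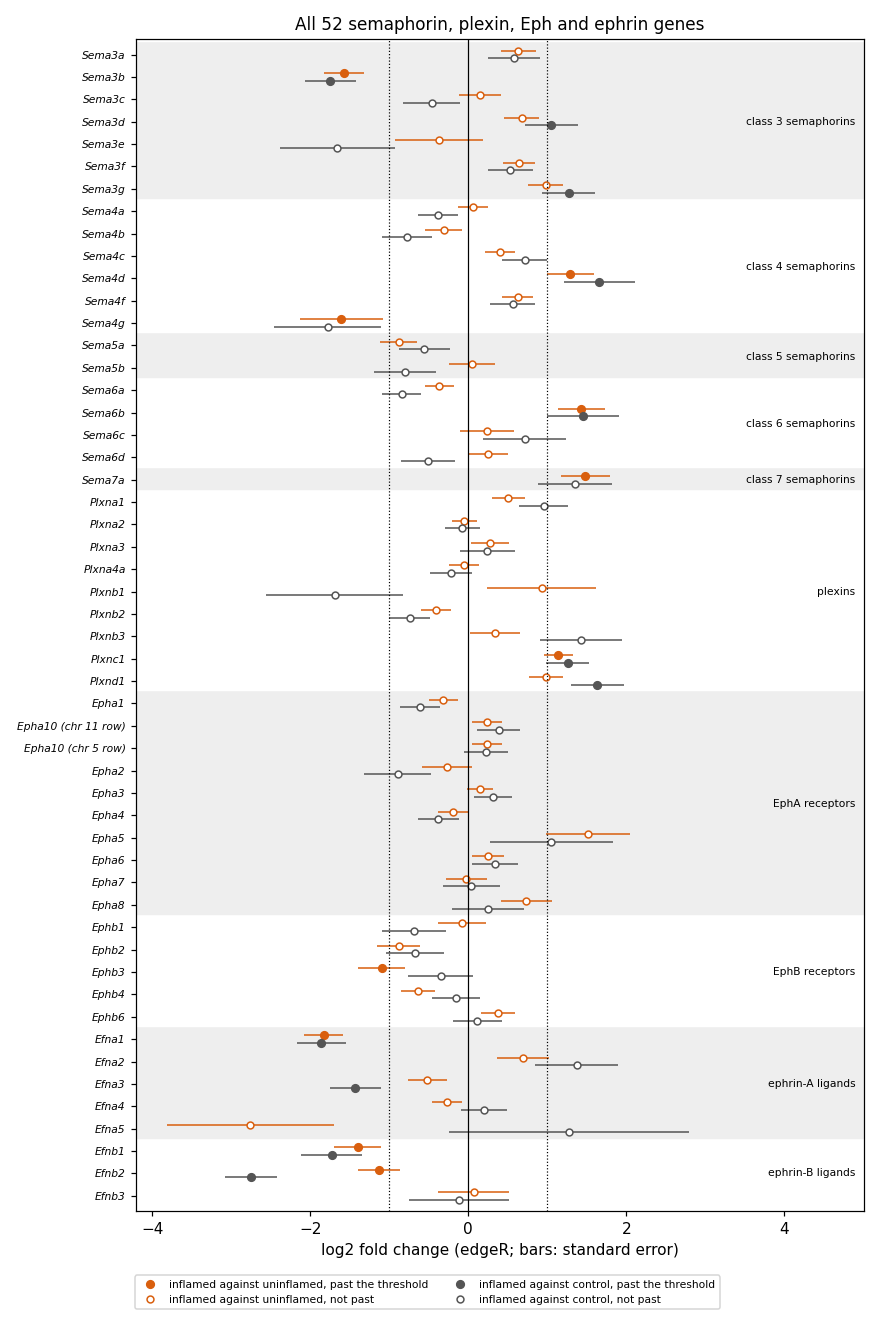
Log2 fold changes of all 52 genes by family in I-UI (orange) and I-C (grey), with bars of 1 standard error and dotted lines at 2-fold; filled points passed the threshold. The EphA rows hold no filled point, while Efna1 (-1.83 in I-UI) and Plxnc1 (1.14) are filled in both comparisons.

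Of the ephrin ligands, Efna1, Efnb1 and Efnb2 fell in I-UI. Efna1, a lipid-anchored ligand that binds EphA2, had 25.6 and 21.4 CPM in controls, 13.8 to 31.7 CPM (median 22.5) in uninflamed and 4.07 to 10.2 CPM (median 6.18) in inflamed libraries. The inflamed libraries lay below all others, again with that of animal 221 the highest among them. The log2 fold change was -1.83 in I-UI (standard error 0.24, adjusted p = 0.000215) and -1.86 in I-C (standard error 0.31, adjusted p = 0.00173), and the inflamed region was the lower in 6 of 6 animals. The calls in both comparisons held under every alternative run.

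Efna3 and Efna4 follow Efna1 directly in RefSeq, with no protein-coding gene between them, and encode ligands of the same kind. Efna3 had 2.21 and 2.89 CPM in controls, 0.943 to 1.83 CPM (median 1.25) in uninflamed and 0.741 to 1.12 CPM (median 0.938) in inflamed libraries. It was called lower in I-C (log2 fold change -1.43, standard error 0.32, adjusted p = 0.00835), a call lost without control 217 (adjusted p = 0.107), and it stood at -0.52 in I-UI (adjusted p = 0.143). Efna2, a further ephrin-A ligand, had 0.69 in I-UI (adjusted p = 0.143). Efna4 had -0.27 in I-UI (adjusted p = 0.335), so that of the 3 neighbours only Efna1 was called there. The difference between the neighbours was not tested.

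Efnb1 and Efnb2, transmembrane ligands of EphB receptors, both fell. Efnb1 had 50.6 and 36.0 CPM in controls, 23.9 to 44.1 CPM (median 35.1) in uninflamed and 7.35 to 28.3 CPM (median 10.9) in inflamed libraries. Only the inflamed region of animal 221, at 28.3 CPM, reached the uninflamed range. Its log2 fold change was -1.40 in I-UI (standard error 0.30, adjusted p = 0.00355, lower in 6 of 6 animals) and -1.73 in I-C (standard error 0.38, adjusted p = 0.00777). The I-C call was lost without control 216 (adjusted p = 0.106).

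Efnb2, the ligand that marks arterial endothelium and binds EphB4, was stepped over the 3 groups. The controls had 93.3 and 203 CPM, the uninflamed libraries 27.4 to 61.7 CPM (median 51.9) and the inflamed libraries 16.3 to 36.0 CPM (median 19.1). Both controls lay above every TNBS library, and the inflamed and uninflamed ranges overlapped. On the log2 scale the difference was -1.13 in I-UI (standard error 0.26, adjusted p = 0.00552, lower in 6 of 6 animals), -2.75 in I-C (standard error 0.33, adjusted p = 0.000409) and -1.61 in UI-C (standard error 0.34, adjusted p = 0.0787). The UI-C difference thus missed the threshold in this test. Without control 217, the higher of the controls, the I-C value was -2.08 (adjusted p = 0.0138). Endothelial markers moved the other way. They summed to 84.5 and 108 CPM in controls, 95.8 to 136 CPM in uninflamed and 155 to 275 CPM in inflamed libraries. Their part in the Efnb2 result was not tested. Efnb3, the remaining ephrin-B ligand, had 0.07 in I-UI (adjusted p = 0.932) at 0.212 to 1.58 CPM over all libraries.

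Of the EphB receptors, Ephb3 was called lower in I-UI, and Ephb2 and Ephb4 had negative values short of 2-fold. Ephb3, which in mice is expressed by crypt cells, had 10.1 and 11.3 CPM in controls, 11.4 to 24.0 CPM (median 17.8) in uninflamed and 3.28 to 15.2 CPM (median 7.46) in inflamed libraries. The inflamed libraries lay on both sides of the controls, and that of animal 221, at 15.2 CPM, was level with its uninflamed counterpart at 14.9 CPM. The log2 fold change was -1.09 in I-UI (standard error 0.30, adjusted p = 0.0138, lower in 5 of 6 animals) and -0.35 in I-C (adjusted p = 0.613). In UI-C it was 0.74 (adjusted p = 0.6685 in the same test), and the uninflamed libraries lay above both controls. The I-UI call was lost without the uninflamed library of animal 222 or the inflamed library of animal 218. Ephb2 had -0.88 (adjusted p = 0.0271) and Ephb4 -0.64 (adjusted p = 0.0432) in I-UI. Ephb1, an Eph receptor first described in nervous tissue, had -0.08 (adjusted p = 0.87) and the kinase-inactive Ephb6 0.38 (adjusted p = 0.218).

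No EphA receptor was called in any comparison by edgeR's quasi-likelihood test. Among the alternatives, Epha5 was called higher in I-UI by edgeR's exactTest, with upper quartile factors, with a minimum count of 30 and without the inflamed library of animal 219, 220, 221 or 223, and Epha2 lower in I-C without the inflamed library of animal 219. Epha2, the receptor of Efna1, had a log2 fold change of -0.27 in I-UI (adjusted p = 0.562) and -0.89 in I-C (adjusted p = 0.173). Epha1, first found in a carcinoma line, was lower in 6 of 6 animals at -0.32 (adjusted p = 0.218), and so was Epha4 at -0.19 (adjusted p = 0.472). Epha7, a receptor known from the developing brain, had -0.02 (adjusted p = 0.956). The I-UI log2 fold changes of the EphA rows ran from -0.32 to 1.51, and the highest belonged to Epha5. The rows of Epha3, Epha6, Epha8 and Epha10 had values of 0.15, 0.25, 0.73 and, in both rows of that name, 0.24 and 0.23.

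Within single animals, the 10 genes called in I-UI moved to different extents. They were called from these same libraries, so that a shared direction follows in large part from that choice. In animals 218, 219, 222 and 223 all 10 had the direction of the call, and 9, 9, 10 and 9 of them differed by 2-fold or more between the regions. In animal 220, 9 had that direction and 5 differed by 2-fold. In animal 221, 8 had it and 3 differed by 2-fold, and its exceptions were Sema4g and Ephb3. The median log2 ratio in the direction of the call was 0.91 in animal 221 and 1.06 in animal 220, and 1.4 to 1.96 in the other animals. The inflamed region of animal 221 was the one in which the epithelial markers stood at 2841 CPM, within the uninflamed range of 2727 to 5075 CPM. Animal 220, with the next lowest median ratio, had the lowest epithelial sum among inflamed regions, 134 CPM, and the highest myeloid sum, 2084 CPM. The extent of the changes thus did not follow these sums in every animal. The part of the markers in the result was not tested.

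**Figure D3:**
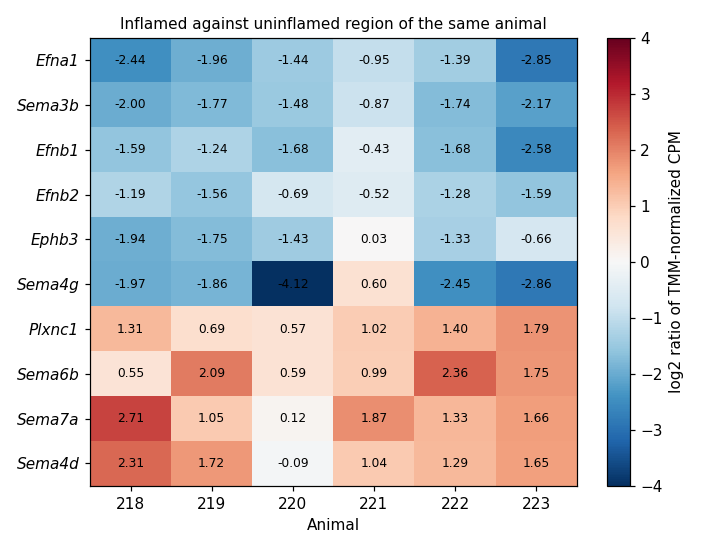
Log2 ratio of the CPM of the inflamed to the uninflamed region for the 10 genes called in I-UI (rows) in each of 6 animals (columns), coloured from blue (lower in the inflamed region) to red (higher). Animal 221 has the palest column among the genes that fell, with Sema4g at 0.60, whereas animal 223 has Efna1 at -2.85.

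Between inflamed regions and controls, 6 members were called higher (11.5%, beside 5.93% of all genes tested) and 5 lower (9.62%, beside 7.79%). The 6 were Plxnc1, Plxnd1, Sema3d, Sema3g, Sema4d and Sema6b, and the 5 were Efna1, Efna3, Efnb1, Efnb2 and Sema3b. Of the 10 genes called in I-UI, 7 were also called in I-C in the same direction, and the 2 comparisons share the inflamed libraries. The calls of the rises were lost when either control was left out, save that of Plxnc1 without control 217. Such a fit keeps 1 control library, which limits its precision. The log2 fold changes of the 6 were 0.92 to 1.69 without control 216 and 1.14 to 1.78 without control 217, beside 1.05 to 1.66 with both controls. Of the falls, Efna1, Efnb2 and Sema3b were called without either control.

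Between uninflamed regions and controls, no member was called higher or lower (edgeR's quasi-likelihood test), beside 0% and 0.145% of all genes. At an unadjusted p under 0.05 there were 5 lower (Efna3, Efnb2, Plxnb1, Sema5b, Sema6d) and 1 higher (Efna5). DESeq2 called Efnb2 lower (log2 fold change -1.62, adjusted p = 0.0078), edgeR's exactTest called Efnb2 and Plxnb1 lower, and limma-voom called none.

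Several members were far higher in single libraries than in all others, so that their group means say little. Efna5, a lipid-anchored ephrin, had 4421 CPM in the uninflamed region of animal 218, 54.9 times the median of the other 13 libraries. Its 27745 reads there were 66.9% of all reads on the 52 genes in that library. The uninflamed region of animal 223 had 745 CPM of Efna5, and the other uninflamed libraries 36.8 to 193 CPM. The I-UI log2 fold change of -2.76 (adjusted p = 0.0718) did not pass here, although DESeq2 and edgeR's exactTest called it lower, and only 3 of 6 animals had the lower value in the inflamed region.

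Epha5, an Eph receptor of neurons, had 433 CPM in the inflamed region of animal 218 and 43.9 to 79.2 CPM in the other inflamed libraries, beside 36.9 to 49.2 CPM in uninflamed libraries and 34.9 and 81.9 CPM in controls. It was higher in the inflamed region of 6 of 6 animals (log2 fold change 1.51, adjusted p = 0.051). Plxnb1, the receptor of Sema4d, had 56.4 CPM in control 216 and 2.76 CPM in control 217. It also had 33.0 CPM in the inflamed region of animal 220, beside 2.44 to 5.23 CPM in the other inflamed libraries. Sema3e, the ligand of Plxnd1, had 456 CPM in control 217 and 60.8 CPM in control 216, and 358 CPM in the uninflamed region of animal 218, beside 43.8 to 64.0 CPM in the other uninflamed libraries. Control 217 and the uninflamed region of animal 218 had the lowest TMM factors, 0.633 and 0.630, beside 0.866 to 1.24 in the other libraries. Whether composition has a part in these single values was not tested.

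**Figure D4:**
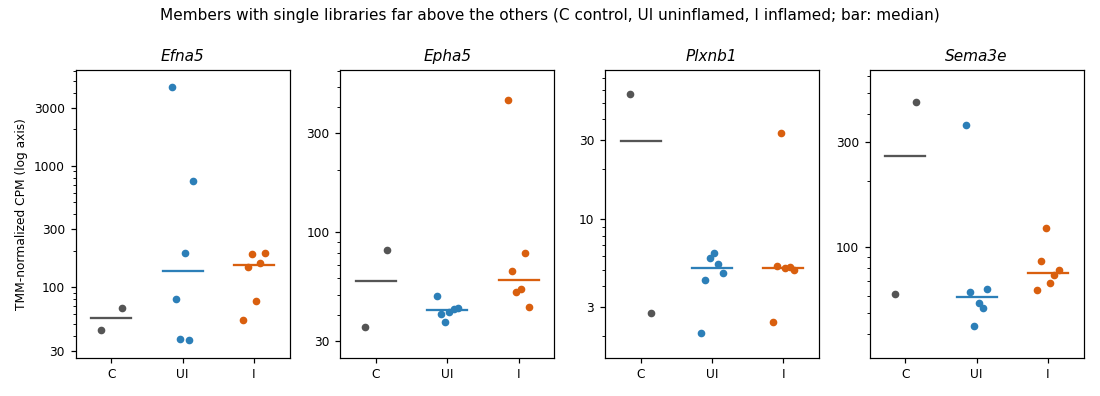
TMM-normalized CPM (log axis) of Efna5, Epha5, Plxnb1 and Sema3e, with 1 point per library and a bar at each group's median (C control, UI uninflamed, I inflamed). Efna5 reaches 4421 CPM in 1 uninflamed library and Epha5 433 CPM in 1 inflamed library, while the controls of Plxnb1 stand at 56.4 and 2.76 CPM.

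Among other receptors and coreceptors of semaphorins, 2 of 14 were called higher and 1 lower in I-UI. Over all genes tested, 6.15% were called higher and 6.95% lower. Tyrobp, a signalling adaptor that works with semaphorin receptors of myeloid cells, rose by 2.55 on the log2 scale (standard error 0.34, adjusted p = 0.000228), and the adhesion molecule Chl1, which joins neuropilins, had 1.35 (adjusted p = 0.00376). The plexin B partner Mst1r, a receptor tyrosine kinase of epithelium, fell (-1.22, adjusted p = 0.00746), and Nrcam had 0.85 (adjusted p = 0.0131). The neuropilins Nrp1 and Nrp2, coreceptors of class 3 semaphorins, had 0.25 and 0.32 (adjusted p = 0.362 and 0.219). Of 23 tested genes of signalling below plexins, 1 was called: the kinase Fyn rose (1.31, standard error 0.21, adjusted p = 0.000598).

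Of 21 genes of signalling below Eph receptors and ephrins, 1 rose and 2 fell in I-UI, beside 6.15% and 6.95% of all genes. The adaptor Grb7, which binds EphB receptors, fell from a mean of 8.38 to 2.09 CPM (log2 fold change -1.98, standard error 0.28, adjusted p = 0.000293, lower in 6 of 6 animals). Pick1, a PDZ protein that binds Eph receptors and ephrin-B, fell (-1.05, adjusted p = 0.00455), and the adaptor Grb10 rose (1.05, adjusted p = 0.00595). The Rac activator Tiam1 had 0.75 (adjusted p = 0.00115), short of 2-fold.

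Of 27 tested netrin, slit and RGM guidance genes, 4 rose and 1 fell in I-UI, beside 6.15% and 6.95% of all genes. Ntng2, a membrane-anchored netrin, rose by 1.03 on the log2 scale (standard error 0.19, adjusted p = 0.00127), and Flrt2, an adhesion molecule that binds Unc5 receptors, 2.02 (standard error 0.41, adjusted p = 0.00269). Rgmb, a repulsive guidance molecule and BMP coreceptor, fell (-1.35, standard error 0.26, adjusted p = 0.00197), and the netrin receptor Unc5b had -0.96 (adjusted p = 0.00257). Slit3, a ligand of Robo receptors, was also called higher (1.05, adjusted p = 0.00754, higher in 5 of 6 animals). The remaining call, Srgap3, rested on 1 library, the inflamed region of animal 219 at 2020 CPM, beside 29.2 to 48.5 CPM in the other inflamed libraries. The median log2 fold changes of these 4 lists in I-UI were 0.43, 0.01, 0.07 and 0.07, beside 0.04 over all genes.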

How the data were processed

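RNA of 14 colon samples was depleted of ribosomal RNA and sequenced on a SOLiD 5500xl instrument as 50-base reads. Per the study's methods, the authors mapped reads to Rnor 5.0 with Ensembl 77 annotation in CLC Genomics Workbench 7.5.1 (at most 2 mismatches, length and similarity fractions of 0.8, at most 10 match positions) and removed ribosomal reads. They deposited unnormalized read counts per gene. Gene lengths were not used, so that levels are not compared between genes, and whether counting used strand was not stated in these sources.

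The counts were fitted in edgeR 4.0.16 (R 4.3.3) with a robust quasi-likelihood model of the 3 groups, TMM factors, filterByExpr at a minimum count of 10 and a prior count of 0.125. The standard error is the absolute log2 fold change divided by the root of F. Calls needed an adjusted p under 0.05 over 18678 genes and a change of at least 2-fold. The study's methods state no pairing, and the model had none. The labels tie both regions to 1 animal. The correlations of their deviations from the group means ran from -0.111 to 0.217. For each inflamed library, the highest correlation with another animal's uninflamed library ran from 0.0382 to 0.22. It exceeded the same-animal value except in animal 222. As the highest of several correlations was set against 1, this comparison cannot decide whether the regions of an animal are alike. A fit with the animal as a block was an alternative. Others were limma-voom (limma 3.58.1), DESeq2 1.42.0, edgeR's exactTest, other scalings, filters and leaving out each library. Each animal gave 1 library per region, and the 2 controls limit precision in I-C and UI-C. Genes described in full were those called in I-UI or I-C. Members and lists were chosen with earlier results of these data known. Sequences and gene neighbours are from RefSeq (GRCr8). Single-library values and members named as neighbours, receptors or ligands were chosen after their values were seen.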

Additional observations from a re-analysis of the deposited data

Results flagged for a closer look

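In groups of 6, 1 library of a member lay far from the other 5 on the log2 scale in 10 of 104 groups tested by Dixon's criterion, which chance alone flags in about 1 of 20 groups. The values of animal 218 account for 7 of them. Its uninflamed region was the highest for Sema4b (50.8 CPM, median of the others 24.2) and Sema3e (358 CPM, 55.5) and the lowest for Plxnb1 (2.07 CPM, 5.4). Its inflamed region was the highest for Sema7a (29.1 CPM, 10.9) and Epha5 (433 CPM, 53.2) and the lowest for Sema3c (46.5 CPM, 109) and Epha4 (17.1 CPM, 28.3). Animal 220 was the highest for Sema4d in uninflamed regions (37.2 CPM, 14.8) and for Plxnb1 in inflamed regions (33.0 CPM, 5.13). Animal 222 was the lowest for Efna2 in uninflamed regions (0.772 CPM, 1.66).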

How the results depend on the processing

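Of 712 values of 14 genes under the alternatives, 646 kept their direction and side of the threshold, 43 lost and 23 gained a call, and none changed direction. The 4 members called higher in I-UI became 7 with upper quartile factors, 9 without a fold minimum and 4 to 7 with 1 library left out, the 7 arising without the inflamed library of animal 221 (Epha5, Plxnd1 and Sema3g added). The 6 called lower became 9 without a fold minimum, 7 with DESeq2 and with edgeR's exactTest, and 4 to 8 with 1 library left out. In I-C, the 6 called higher became 4 to 8 with 1 TNBS library left out. Without both libraries of animal 218 they became 9 (Efna2, Plxna1 and Plxnb3 added). The 5 called lower became 5 to 6 with 1 TNBS library left out, and 7 with edgeR's exactTest (Sema3e and Sema4g added). The I-C calls lost when 1 control was left out are given above. In UI-C, the 0 called lower became 1 with DESeq2 (Efnb2), 2 with edgeR's exactTest, 0 to 1 with 1 library left out (Efnb2 without control 216 or the inflamed library of animal 221) and 1 without both libraries of animal 218 (Sema3e), an alternative chosen after seeing the data, as was a prior count of 2. The cause was not tested. With the animals as a replicate block in I-UI, 4 were higher and 6 lower, the same 10 genes, and this pairing changed no other call among the members. Scaling moved the median of all genes by less than 0.1. Depth limits the lowest genes, at 3 reads in a library.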
